A study of Mus musculus with 12 samples.

Results

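The genes described here are 37 genes of the lysosome. Of these, 28 were grouped as hydrolases, cofactors and transfer proteins and 7 as further proteins of the lysosomal membrane. The others are the mannose 6-phosphate receptor gene M6pr and the transcription factor gene Tfeb. The 37 were chosen by gene symbol, with the cathepsins left out. All 37 were found among the 24495 genes of the count table and passed the filter on low counts, which 15532 genes passed. Over 4 days with retinoic acid most of them rose in both cell lines: between Day 0 and Day 4, 24 were called higher in shSC, where 32.1% of all genes tested were, and 25 in shCTSL, where 32.3% were, with 24 called in both. Lipa, Arsb, Lamp2 and Naglu led, with log2 fold changes of 2.85 to 3.87 in shSC. Tfeb, Manba and Scarb2 fell in both lines, Tfeb by 3.19 on the log2 scale in shSC, beside 28.7% of all genes called lower in shSC and 27.6% in shCTSL. Between the lines, edgeR called none of the 37 on any day, beside 0.0386% of all genes on Day 0, 0.0644% on Day 2 and 0.0129% on Day 4. The targeted gene Ctsl was itself not called on Day 4.

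Lysosomes are acidic organelles in which hydrolases break down glycolipids, glycosaminoglycans, glycoproteins, glycogen and proteins that arrive by endocytosis and autophagy. Most of the soluble hydrolases carry mannose 6-phosphate, which receptors such as that encoded by M6pr recognise in the Golgi, whereas the heavily glycosylated membrane proteins LAMP1 and LAMP2 make up much of the lysosome's boundary. TFEB and its relatives TFE3 and MITF bind a palindromic E-box, known as the CLEAR element, near the start of many lysosomal genes, and TFE3 and TFEB are known in mouse embryonic stem cells for their part in leaving the pluripotent state.

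RNA-seq was made from CCE-Nanog-GFP mESCs, a mouse embryonic stem cell (mESC) line that carries a GFP reporter for Nanog, in 2 derivatives. The control, shSC, carried a scramble shRNA (libraries labelled scr, genotype WT) and shCTSL carried a lentiviral shRNA in pLKO.1 against Ctsl, the gene of cathepsin L (libraries labelled KD), both after selection with puromycin and sorting of GFP+ cells. Each line was taken as undifferentiated cells in LIF on gelatin (Day 0), and as embryoid bodies (EBs) kept under rotation without LIF in 10 μM all-trans retinoic acid for 2 or 4 days (Day 2, Day 4), which gave 6 groups of 2 biological replicates. The knockdown rests on the line the study calls shCTSL. With 2 libraries per group the p-values measure the spread between these libraries only.

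The 12 libraries held 11171111 to 27155553 counted reads. Levels are given as normalized CPM, that is counts scaled to library size and TMM factors (CPM), and a gene was called changed at an adjusted p under 0.05 over all genes tested together with a change of at least 1.5-fold. In the target gene Ctsl (chr13:64464522-64471614, minus strand, mm9), which is not one of the 37, the normalized CPM in shSC were 137 and 147 on Day 0, 369 and 391 on Day 2, and 484 and 423 on Day 4. In shCTSL the Ctsl values were 39.2 and 37.5 on Day 0, 211 and 155 on Day 2, and 257 and 253 on Day 4, below both shSC libraries on every day. The edgeR log2 difference was -1.89 ± 0.15 (SE) on Day 0, -1.06 ± 0.14 on Day 2 and -0.83 ± 0.14 on Day 4, so Ctsl was 73.0%, 51.9% and 43.8% lower. It was called on Day 0 and Day 2 and not on Day 4, where the adjusted p was 0.0896. The Day 0 call was lost without either shCTSL Day 0 library (adjusted p = 0.117 and 0.129), and the Day 2 call stood in 2 of the 12 fits that left out 1 library, those without an shCTSL Day 2 library.

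The cell type labels were checked with marker genes. All 8 markers of pluripotent cells were called lower from Day 0 to Day 4 in each line, and their summed level went from 5989.9 to 6432 normalized CPM on Day 0 over both lines to 347 to 419 on Day 4. Markers of visceral endoderm, an extraembryonic tissue rich in endocytosis and lysosomes, moved with the lysosomal genes: 11 of 12 were called higher in shSC and 12 of 12 in shCTSL, and their sum went from 12.5 to 15.6 on Day 0 to 529 to 646 on Day 4. Of 6 fibroblast markers 5 were tested, 4 of which were called higher and 1 lower in each line, with sums of 8.11 to 11.7 on Day 0 and 102 to 132 on Day 4. The 8 macrophage markers, of which 4 passed the filter on low counts, summed to 2.71 to 4.53 in all 12 libraries. Of these 4, 2 were called higher by Day 4 in each line, and 2 lower in shSC and 1 in shCTSL. Csf1r and Cd14 were the higher ones, at no more than 1.35 and 1.52 normalized CPM in any library, and Itgam, lower in both lines, was at most 3.28. Ptprc did not exceed 14 counts, Lyz2 6 counts and Adgre1 2 counts in any library. In bulk samples such as these, fewer cells of a type and less RNA per cell cannot be told apart, and the part of the visceral endoderm and fibroblast markers in the results below was not tested.

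The first question was how the lysosomal genes changed as the cells left the pluripotent state. From Day 0 to Day 2, 21 of the 37 were called higher and 3 lower in shSC, where 29.3% of all genes tested were called higher and 25.3% lower. The middle value of the log2 fold changes of the 37, their median, was 0.67, beside 0.02 over all genes tested. In shCTSL over the same 2 days, 24 were called higher and 3 lower, against 30.9% and 24.6% of all genes, and the median was 0.95 beside 0.08. The share called higher was thus 56.8% of the lysosomal genes in shSC and 64.9% in shCTSL.

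Changes from Day 2 to Day 4 were fewer. In shSC 7 of the 37 were called higher and 1 lower, while 11.4% of all genes were called higher and 12.4% lower. In shCTSL 5 were called higher and 0 lower by edgeR and by DESeq2, beside 11% and 12.4% of all genes. Before adjustment, 16 were higher and 2 lower at an edgeR p under 0.05, which is 48.6% of the 37 beside 41.0% of all genes. Lipa, Lamp2, Cd63 and Idua were called higher in both lines. Acp2, Neu1 and Smpd1 were called in shSC alone and Asah1 in shCTSL alone, and the difference between the lines in this step was called for none of them. The count in shSC turned on genes at the edge of the threshold. Idua, Neu1 and Smpd1, all at the 1.5-fold cutoff, lost their calls in shSC under 16, 17 and 17 alternatives, and Cd63 under 10. With RLE normalization 4 genes were called higher and 1 lower in shSC, and with DESeq2 5 and 1. The 8 calls in shSC became 3 without the first shSC Day 4 library and 10 without the second. They became 4 or 5 when any 1 of the Day 0 libraries of either line, the shSC Day 2 libraries or the shCTSL Day 4 libraries was left out. In shCTSL the count was 9 without the second shCTSL Day 2 library and 3 without the first shCTSL Day 4 library.

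Over the whole course from Day 0 to Day 4, 24 were called higher and 3 lower in shSC, against 32.1% and 28.7% of all genes. In shCTSL, 25 were called higher and 3 lower, against 32.3% and 27.6%. Medians of the log2 fold changes were 1.03 in shSC and 1.29 in shCTSL, beside 0.03 and 0.06 over all genes. Only Fuca1 was called in 1 line and not in the other. Cln3, Gla, Glb1, Gm2a, Ids, Lamp1, M6pr, Man2b1 and Tpp1 were called in neither line. The counts were the same by DESeq2 and when both shCTSL Day 2 libraries were left out, 24 and 3 in shSC and 25 and 3 in shCTSL. Summed over the 37 genes, the level went from 2446 and 2470.0 normalized CPM in the shSC Day 0 libraries to 3983 and 4404 on Day 4, and from 2431 and 2504 to 4432 and 4471 in shCTSL.

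**Figure D1:**
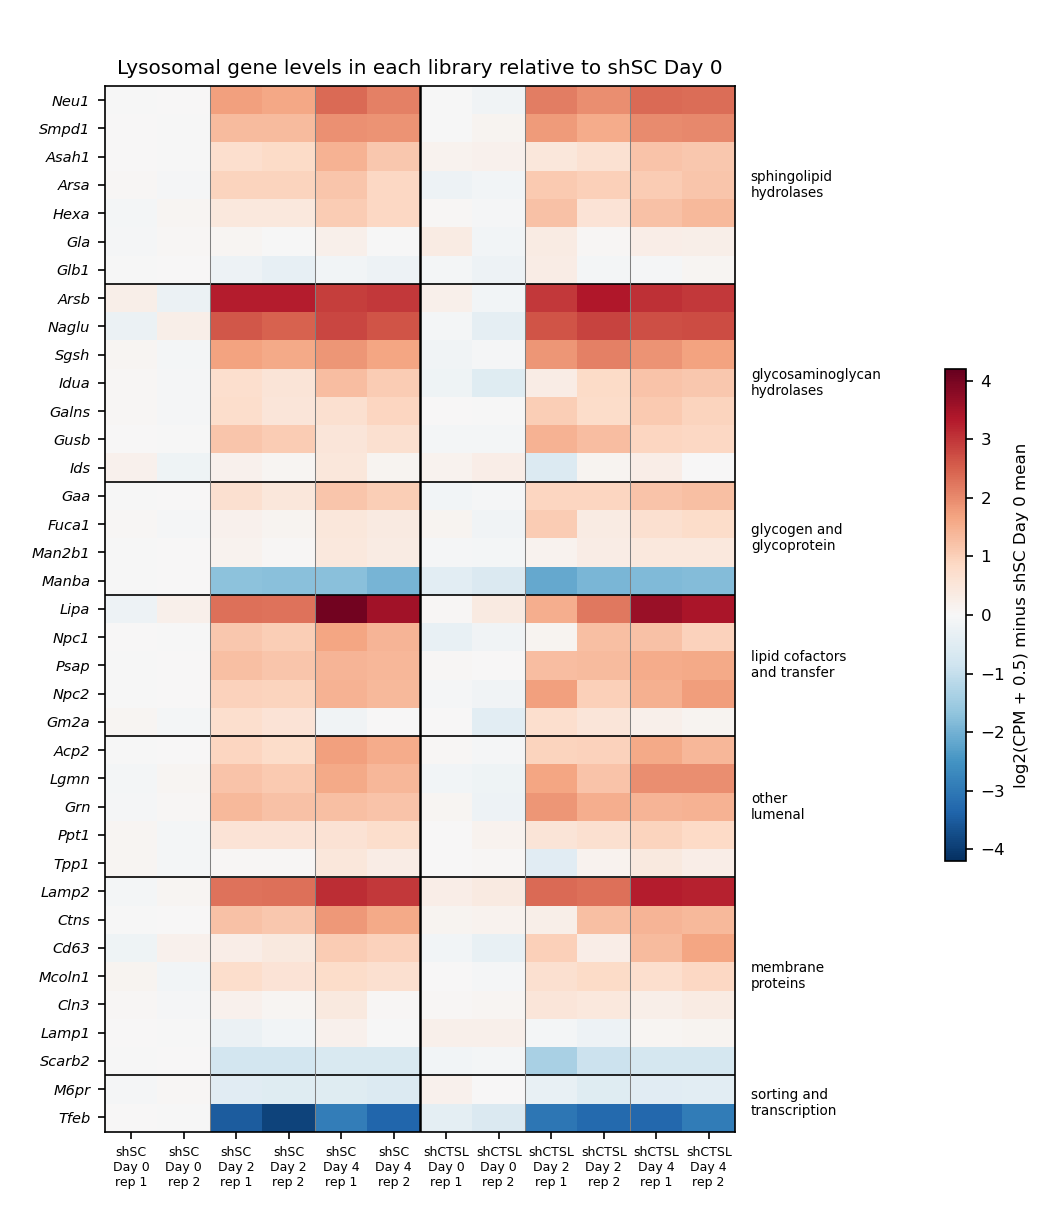
Each row is one of the 37 genes, grouped by role, and each column one library; the colour gives log2(normalized CPM + 0.5) minus the mean of that value over the shSC Day 0 libraries. Most rows turn red at Day 2 and Day 4 in both lines, with Arsb, Naglu, Lipa and Lamp2 darkest, whereas Tfeb and Manba turn blue.

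Tfeb (chr17:47873979-47929368, plus strand, in mm9 as all gene positions here), the transcription factor of the set, was the gene that fell furthest. In shSC its normalized CPM were 57.1 and 55.0 on Day 0, 4.51 and 3.33 on Day 2, and 7.07 and 5.06 on Day 4. In shCTSL they were 42.3 and 36.3 on Day 0, 6.34 and 5.41 on Day 2, and 5.20 and 6.84 on Day 4. In both lines every Day 2 and Day 4 library lay below every Day 0 library, with most of the loss already present on Day 2. The log2 fold change from Day 0 to Day 2 was -3.83 ± 0.22 in shSC and -2.75 ± 0.21 in shCTSL, and to Day 4 -3.19 ± 0.21 and -2.71 ± 0.21, which is 9.12-fold and 6.52-fold lower. Of 15 genes of the TFEB family and of its control by the kinase complex mTORC1, 5 were called higher and 2 lower in shSC from Day 0 to Day 4, and 4 higher and 2 lower in shCTSL. The share called higher was near that of all genes, 32.1% in shSC and 32.3% in shCTSL. The lowest was the relative Mitf, at -2.02 in shSC and -2.17 in shCTSL, and the highest the relative Tfec, at 3.45 and 3.95 with a mean of at most 1.90 normalized CPM in any group. Tfe3, a relative named after its values were seen, fell from a mean of 139 normalized CPM on Day 0 to 54.3 on Day 2 in shSC and stood at 89.7 on Day 4. Its change over the 4 days was -0.63 on the log2 scale, which was called lower, and in shCTSL -0.47, which was not called.

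The promoters of the lysosomal genes were searched for the core of the CLEAR element. RefSeq promoter sequences (GRCm38.p6, 250 bases before to 50 after each gene's start) were at hand for 33 of the 37 genes; Asah1, Galns, M6pr and Npc1 are named only. The letters TCACGTG, on either strand, were found in 10 of the 33 (30.3%) and in 4.29% of the 27025 genes of the table. Over 11778 genes that were also tested for expression the share was 6.61%. The shorter CACGTG was found in the same 10 and in 8.09% of all genes, and the full palindrome TCACGTGA, which contains both, in 3 of the 33 (Cln3, Gla and Mcoln1) and 1.12% of all genes. The 10 were Arsa, Cln3, Gaa, Gla, Glb1, Lamp1, Lgmn, Mcoln1, Naglu and Sgsh. Printed here are the last 80 bases before the start for the 7 of these with the letters in that stretch, 5′ to 3′ along each gene, with TCACGTG, its reverse complement CACGTGA or the full palindrome in capitals. They are shown because genes with the same letters in this stretch differed in what their RNA did. Naglu, Sgsh, Lgmn, Arsa and Mcoln1 were called higher by Day 4 in both lines, Naglu by 7.22-fold in shSC. Lamp1 with 4 copies and Glb1 with 1 were not called.
Naglu: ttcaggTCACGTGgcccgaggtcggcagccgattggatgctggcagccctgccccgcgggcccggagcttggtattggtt
Sgsh: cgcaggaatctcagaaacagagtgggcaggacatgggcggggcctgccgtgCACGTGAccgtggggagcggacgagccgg
Lgmn: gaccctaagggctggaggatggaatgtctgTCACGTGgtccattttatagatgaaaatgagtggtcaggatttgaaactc
Arsa: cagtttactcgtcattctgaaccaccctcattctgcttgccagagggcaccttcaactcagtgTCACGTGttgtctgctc
Mcoln1: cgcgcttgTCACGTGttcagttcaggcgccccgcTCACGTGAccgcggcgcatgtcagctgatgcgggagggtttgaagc
Lamp1: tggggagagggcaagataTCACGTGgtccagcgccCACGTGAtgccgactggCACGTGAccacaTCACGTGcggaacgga
Glb1: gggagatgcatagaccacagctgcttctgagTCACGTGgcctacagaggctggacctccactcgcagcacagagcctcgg
In GRCm38.p6 these are chr11:101070014-101070093 on the plus strand, chr11:119355511-119355590 on the minus strand, chr12:102439093-102439172 on the minus strand, chr15:89477425-89477504 on the minus strand, chr8:3500439-3500518 on the plus strand, chr8:13159081-13159160 on the plus strand and chr9:114400998-114401077 on the plus strand, in the order printed. A match is a description of the letters and not a site shown to be bound.

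Genes with and without the letters were set side by side, against 32.1% of all genes called higher and 28.7% lower over the 4 days in shSC and 32.3% and 27.6% in shCTSL. In shSC from Day 0 to Day 4, 6 of the 10 genes with TCACGTG were called higher and 0 lower, with a median log2 fold change of 0.90 and a range of -0.17 to 2.85. Of the 23 genes without it, 15 were called higher and 3 lower, with a median of 1.03 and a range of -3.19 to 3.87. In shCTSL the genes with the letters had 6 called higher and 0 lower (median 1.06), those without 16 and 3 (median 1.29). From Day 2 to Day 4, 0 of the 10 and 8 of the 23 were called in shSC, beside 11.4% of all genes called higher and 12.4% lower. No test was made of these differences.

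The best known pair of lysosomal membrane proteins, LAMP1 and LAMP2, parted. Lamp1 (chr8:13159135-13175338, plus strand) read 478 and 475 on Day 0, 404 and 436 on Day 2, and 543 and 473 on Day 4 in shSC. The shCTSL values were 547 and 549 on Day 0, 453 and 408 on Day 2, and 509.9 and 511 on Day 4. The Day 2 libraries were the lowest of each line, but no change between days was called in either line. The log2 value for Day 4 against Day 0 was 0.09 ± 0.10 in shSC and -0.10 ± 0.10 in shCTSL, and the sign of the former turned without the first shSC Day 4 library.

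Lamp2 (chrX:35754534-35809631, minus strand), which serves chaperone-mediated autophagy and the fusion of autophagosomes in addition to its place in the membrane, rose in both steps. Its normalized CPM in shSC were 34.2 and 37.5 on Day 0, 176 and 181 on Day 2, and 308 and 285 on Day 4. In shCTSL they were 43.0 and 46.6 on Day 0, 186 and 179.9 on Day 2, and 359 and 338 on Day 4. The days did not overlap in either line. The change from Day 0 to Day 4 was 8.26-fold in shSC (log2 3.05 ± 0.11, adjusted p = 1.11e-08) and 7.78-fold in shCTSL, and from Day 2 to Day 4 it was 1.66-fold and 1.90-fold. Per kilobase of exon, with all annotated exons of a gene joined, Lamp1 stood at 211 normalized CPM and Lamp2 at 3.75 on shSC Day 0. On shSC Day 4 they stood at 225 and 31.0. The joined length of Lamp2, 9.55 kb, may exceed that of a single transcript, which would set its level too low.

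The other membrane proteins split as well. Scarb2 (chr5:92872899-92934634, minus strand), the receptor that carries glucocerebrosidase to the lysosome, read 135 and 137 on Day 0, 78.9 and 80.2 on Day 2, and 87.0 and 87.7 on Day 4 in shSC. Its shCTSL libraries gave 125 and 129 on Day 0, 53.3 and 72.5 on Day 2, and 82.1 and 81.1 on Day 4. All later libraries were below those of Day 0, and the log2 fold change to Day 4 was -0.64 ± 0.13 in shSC and -0.64 ± 0.13 in shCTSL. Ctns, the cystine exporter, Cd63, a tetraspanin of late endosomes and lysosomes, and Mcoln1, a calcium channel, rose from Day 0 to Day 4, by 1.73, 1.03 and 0.74 on the log2 scale in shSC and by 1.29, 1.73 and 0.80 in shCTSL. Cln3, the gene of juvenile Batten disease, was at 0.25 and 0.22 and was not called.

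Sorting was represented by M6pr (chr6:122258738-122267698, plus strand), the cation-dependent mannose 6-phosphate receptor. Its normalized CPM were 204 and 214 on Day 0, 151 and 147 on Day 2, and 145 and 140.2 on Day 4 in shSC. In shCTSL they were 236 and 213 on Day 0, 168 and 148 on Day 2, and 149.8 and 152 on Day 4. Each Day 2 and Day 4 library lay below the Day 0 libraries of its line, at a log2 fold change to Day 4 of -0.55 ± 0.10 in shSC and -0.57 ± 0.10 in shCTSL. Both adjusted p were under 0.05 (0.000728 and 0.000569) with a change of 1.46-fold and 1.49-fold, short of the 1.5-fold required. With offsets for exonic length it was called lower in both lines, at -0.60 and -0.63.

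**Figure D2:**
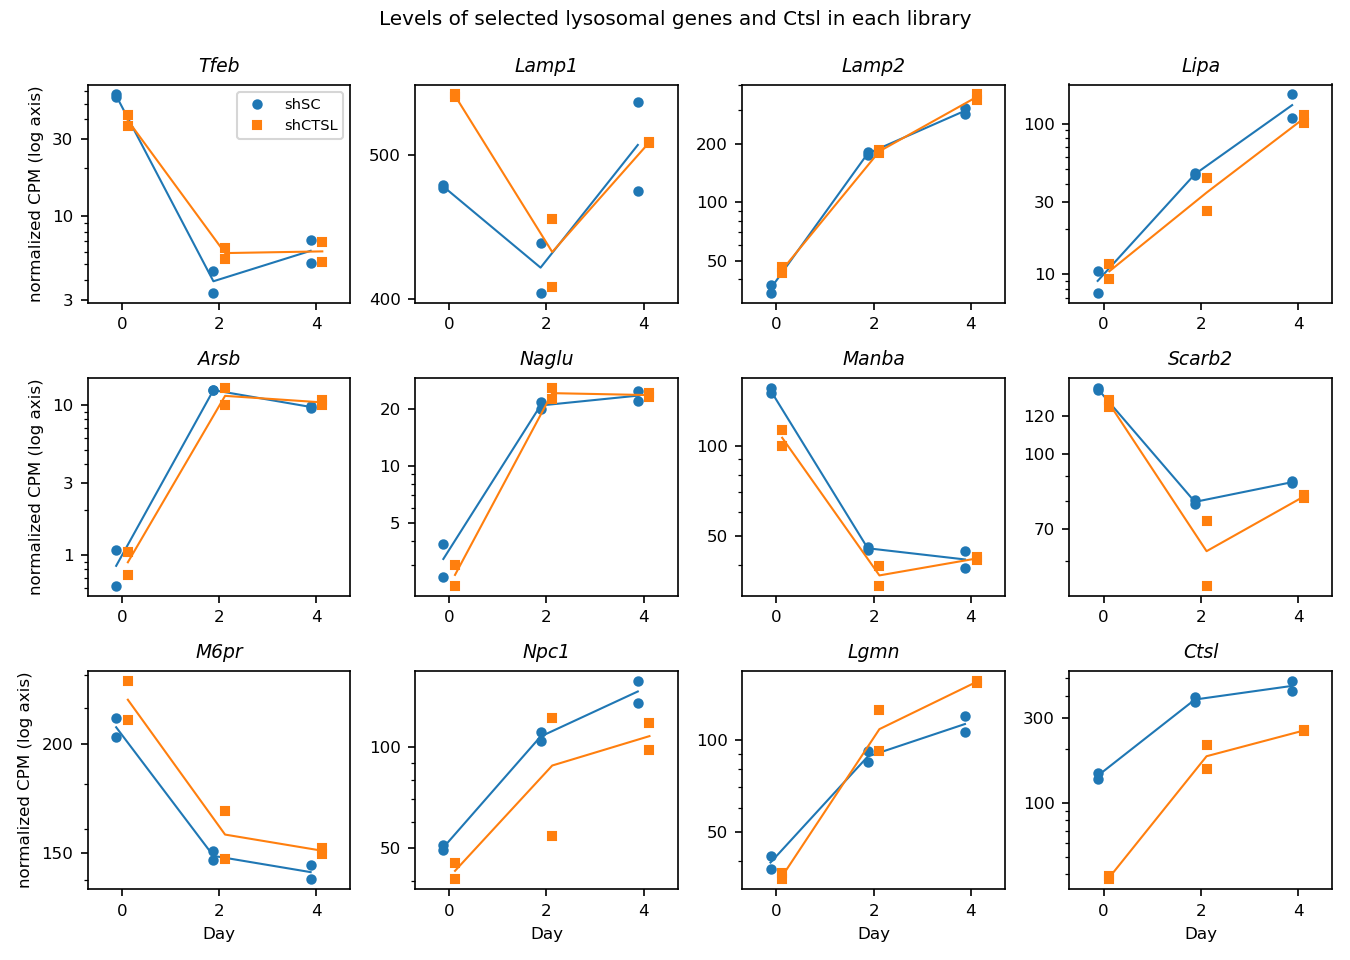
Normalized CPM (log axis, scaled to each gene) against day for 11 of the lysosomal genes and for Ctsl; points are single libraries of shSC (circles) and shCTSL (squares), drawn slightly apart, and lines join the means. Tfeb and Manba drop by Day 2, Lipa and Lamp2 climb through Day 4, and Arsb and Naglu make most of their rise by Day 2. For Ctsl and Scarb2 the squares lie below the circles on each day.

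Among the 7 hydrolases of glycosaminoglycans, Arsb and Naglu had the steepest rises of the 37 from Day 0 to Day 2 in shSC. In that step 6 of the 7 were called higher in each line, beside 29.3% of all genes in shSC and 30.9% in shCTSL. Their median log2 fold change was 1.13 in shSC and 1.46 in shCTSL. The rise was not particular to this group. All 5 lipid cofactors and lipid-handling proteins were called higher in each line, with medians of 1.10 and 1.30. Arsb (chr13:94541634-94712971, plus strand), the N-acetylgalactosamine 4-sulfatase that is lost in mucopolysaccharidosis VI, read 1.07 and 0.620 on Day 0, 12.5 and 12.5 on Day 2, and 9.46 and 9.85 on Day 4 in shSC. In shCTSL it read 1.04 and 0.737 on Day 0, 9.91 and 13.0 on Day 2, and 10.7 and 9.99 on Day 4. It went from the lowest level of the 37 genes per kilobase on Day 0, with 7 counts in 1 library, to 9.46 to 13.0 normalized CPM over the later libraries of both lines. The log2 fold change from Day 0 to Day 4 was 3.54 ± 0.26 in shSC and 3.49 ± 0.26 in shCTSL.

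Naglu (chr11:100931326-100938986, plus strand), an N-acetylglucosaminidase of heparan sulfate breakdown, read 2.59 and 3.84 on Day 0, 21.7 and 19.9 on Day 2, and 24.8 and 22.1 on Day 4 in shSC. The shCTSL values were 2.98 and 2.32 on Day 0, 22.5 and 25.9 on Day 2, and 23.2 and 24.1 on Day 4. It too was near its Day 4 level on Day 2, with log2 fold changes from Day 0 to Day 2 of 2.68 ± 0.19 and 3.17 ± 0.21. Sgsh, the sulfamidase of the same pathway, rose 3.86-fold and 4.25-fold by Day 4, Idua 2.36-fold and 2.93-fold and Galns 1.78-fold and 2.12-fold in shSC and shCTSL. Ids, the iduronate sulfatase, was at log2 fold changes of 0.31 and -0.05 and was not called.

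Gusb (chr5:130464881-130478919, minus strand), the beta-glucuronidase, was higher on Day 2 than on the days before and after. Its normalized CPM were 29.0 and 28.9 on Day 0, 65.6 and 60.9 on Day 2, and 41.6 and 46.8 on Day 4 in shSC. In shCTSL they were 27.6 and 27.5 on Day 0, 79.997 and 71.9 on Day 2, and 54.2 and 53.7 on Day 4. The 3 days did not overlap in either line. The log2 fold change from Day 2 to Day 4 was -0.52 ± 0.11 in shSC and -0.49 ± 0.11 in shCTSL, with adjusted p of 0.00466 and 0.00624 and changes of 1.43-fold and 1.41-fold that did not reach 1.5-fold. Its call from Day 0 to Day 4 in shSC, at 0.61, was lost without the second shSC Day 4 library (0.52) and with offsets for exonic length (0.53).

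Among the 5 lipid cofactors and lipid-handling proteins, Lipa rose the most. Lipa (chr19:34566808-34601964, minus strand), the acid lipase that frees cholesterol and fatty acids from lipoprotein lipids, read 7.55 and 10.5 on Day 0, 46.7 and 45.6 on Day 2, and 156 and 109 on Day 4 in shSC. Its shCTSL libraries gave 9.25 and 11.7 on Day 0, 26.3 and 43.3 on Day 2, and 115 and 102 on Day 4. The 3 days did not overlap, and Lipa rose in both steps, by 5.07-fold and then 2.87-fold in shSC and by 3.36-fold and 3.09-fold in shCTSL. Over both steps the change was 3.87 ± 0.28 on the log2 scale in shSC and 3.38 ± 0.28 in shCTSL.

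Npc1 and Npc2, which pass cholesterol from the lumen through the membrane, and Psap, the precursor of the saposins that present sphingolipids to hydrolases, also rose. By Day 4 the log2 fold changes were 1.55, 1.42 and 1.42 in shSC and 1.34, 1.73 and 1.55 in shCTSL. Psap had the highest level per kilobase of the 37 on Day 4, a mean of 238 normalized CPM in shSC beside 88.8 on Day 0.

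Gm2a (chr11:54911617-54926531, plus strand), the activator of ganglioside GM2 breakdown, was likewise highest on Day 2. It read 13.7 and 12.02 on Day 0, 21.4 and 19.5 on Day 2, and 11.4 and 13.1 on Day 4 in shSC. In shCTSL it read 13.1 and 9.37 on Day 0, 21.4 and 18.5 on Day 2, and 15.1 and 14.1 on Day 4. No library of another day reached those of Day 2. Gm2a was called higher from Day 0 to Day 2 in both lines and was the 1 gene called lower from Day 2 to Day 4 in shSC, at -0.74 ± 0.17. That call was lost without the first shSC Day 2 or the first shSC Day 4 library, and in shCTSL the value of -0.45 ± 0.17 was not called. Across all 4 days the log2 value of -0.07 ± 0.18 in shSC was not called.

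Of the 7 sphingolipid hydrolases 5 were called higher by Day 4 in each line, beside 32.1% of all genes in shSC and 32.3% in shCTSL. Neu1, the lysosomal sialidase, led at 4.89-fold in shSC and 5.55-fold in shCTSL, and Smpd1, acid sphingomyelinase, followed at 3.86-fold and 3.95-fold. Asah1, acid ceramidase, and Arsa, arylsulfatase A, rose by 1.31 and 1.06 on the log2 scale in shSC, and in shCTSL by 1.01 and 1.31. Hexa, the alpha subunit of beta-hexosaminidase, was at 0.98 and 1.29. Gla, alpha-galactosidase A, at 0.10 and 0.13, and Glb1, beta-galactosidase, at -0.17 and 0.17, were not called. The enzymes of neighbouring steps in ganglioside breakdown thus included both called and uncalled genes.

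Of the 4 glycosidases of glycogen and glycoproteins, Manba went against the others. Manba (chr3:135148575-135234368, plus strand), the beta-mannosidase, read 149 and 156 on Day 0, 46.0 and 45.1 on Day 2, and 44.5 and 39.1 on Day 4 in shSC. The shCTSL values were 112 and 99.96 on Day 0, 34.2 and 39.9 on Day 2, and 41.7 and 42.6 on Day 4. All Day 2 and Day 4 libraries were below those of Day 0 in both lines, at a log2 fold change to Day 4 of -1.86 ± 0.12 in shSC and -1.33 ± 0.12 in shCTSL. Man2b1, the alpha-mannosidase, was at 0.39 and 0.50 and was not called. Gaa, the acid alpha-glucosidase of glycogen, rose 2.14-fold and 2.50-fold. Fuca1, the alpha-fucosidase, was at 0.44 ± 0.20 in shSC and was called in shCTSL, at 0.74 ± 0.20. That call was lost without the second shCTSL Day 0 library (0.62).

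Of the 5 other lumenal proteins 4 were called higher by Day 4 in each line, beside 32.1% of all genes in shSC and 32.3% in shCTSL. Acp2 (chr2:91043042-91054255, plus strand), a lysosomal acid phosphatase, read 15.4 and 16.0 on Day 0, 30.1 and 27.4 on Day 2, and 52.5 and 47.4 on Day 4 in shSC. Its shCTSL libraries gave 16.3 and 15.2 on Day 0, 30.6 and 31.4 on Day 2, and 48.4 and 42.4 on Day 4. It rose in both steps in shSC, the second by 1.74-fold, and in shCTSL the second step of 1.47-fold was under the threshold. Lgmn, an asparagine-specific endoprotease, Grn, the precursor of the granulins, and Ppt1, a palmitoyl thioesterase, rose by 1.51, 1.24 and 0.68 on the log2 scale in shSC and by 2.11, 1.52 and 0.81 in shCTSL. Tpp1, a tripeptidyl peptidase, was at 0.40 and 0.32 and was not called.

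**Figure D3:**
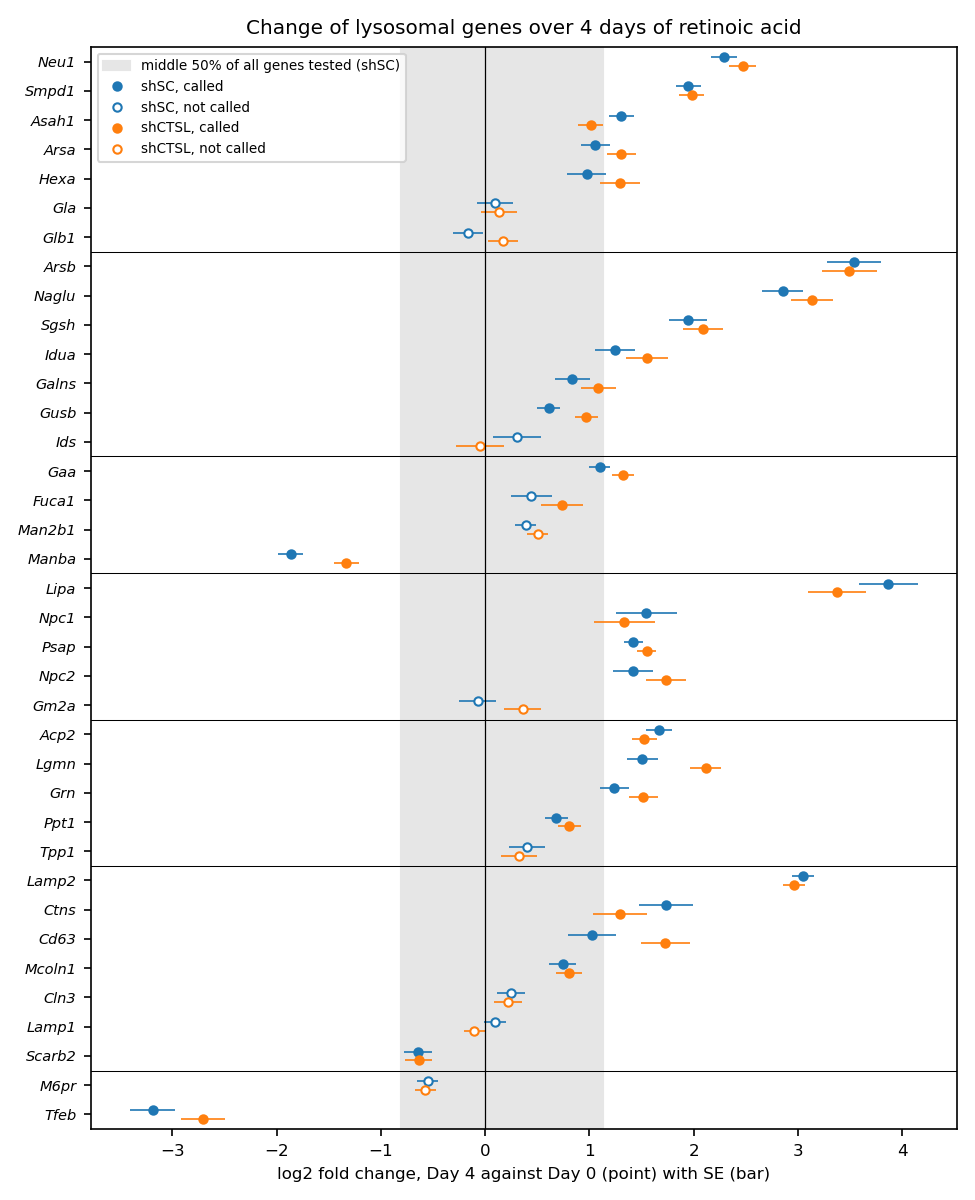
Log2 fold change from Day 0 to Day 4 with its SE for each of the 37 genes in shSC (blue) and shCTSL (orange); filled points were called, open points were not, the grey band holds the middle 50% of all genes tested in shSC, and lines part the roles. Points of both lines fall on the same side of 0 for 33 of the 37 genes, the exceptions being Glb1, Gm2a, Ids and Lamp1.

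The second question was whether the knockdown of Ctsl, a protease of the lysosome, went with other levels of the lysosomal genes. By edgeR, 0 of the 37 were called between the lines on Day 0, where 0.0386% of all genes were called, 0 on Day 2 (0.0644% of all genes), 0 on Day 4 (0.0129%) and 0 in the mean difference over the 3 days (0.27%). DESeq2 also called 0 in each. Before adjustment, a p under 0.05 was reached by 3 on Day 0, 14 on Day 2, 3 on Day 4 and 10 in the 3-day mean, which is 8.11%, 37.8%, 8.11% and 27.0% of the 37 beside 7.26%, 19.4%, 12.2% and 22.6% of all genes. The 95% intervals of the mean difference over the days for all 37 lay between -0.69 and 0.54 on the log2 scale. That is within 1.61-fold lower and 1.46-fold higher. On single days the intervals were wider. They reached 1.91-fold lower and 1.95-fold higher on Day 0 and 1.93-fold lower and 2.08-fold higher on Day 2. On Day 4 they reached 2.11-fold lower and 1.96-fold higher. The median of the mean difference over the days was 0.09, beside 0.00 over all genes. For comparison, Ctsl in the same mean was -1.26 ± 0.08.

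**Figure D4:**
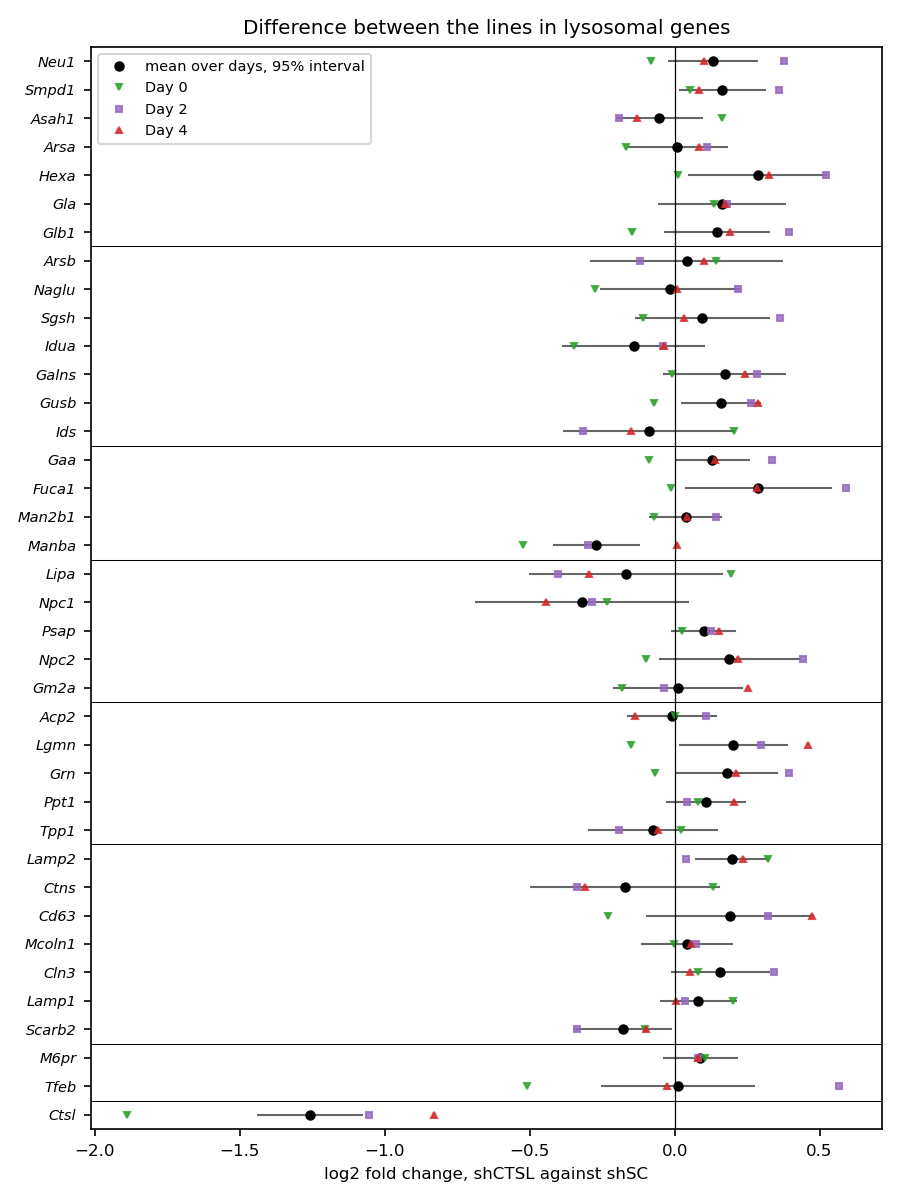
Log2 fold change of shCTSL against shSC for each of the 37 genes and for Ctsl in the last row; black points are the mean over the 3 days with its 95% interval and coloured points the single days. The 37 genes lie between -0.32 and 0.29 in the mean, and Ctsl at -1.26.

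The 3 highest mean differences were those of Fuca1, Hexa and Lgmn. The intervals given for these and for the 3 lowest are not adjusted for their choice as extremes of the 37. The lowest adjusted p of the 37 in the mean over the days was 0.113 by edgeR. Fuca1 (chr4:135476650-135496226, plus strand) read 42.1 and 38.7 on Day 0, 45.5 and 44.2 on Day 2, and 56.6 and 53.1 on Day 4 in shSC. In shCTSL it read 43.3 and 36.7 on Day 0, 84.3 and 51.1 on Day 2, and 64.8 and 69.0 on Day 4. The lines overlapped on Day 0 and shCTSL was above shSC on Day 2 and Day 4, with the first shCTSL Day 2 library standing out. The mean difference was 0.29 ± 0.11 (95% interval 0.03 to 0.54).

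Hexa (chr9:59387474-59412914, plus strand) read 38.7 and 43.6 on Day 0, 55.6 and 55.7 on Day 2, and 86.0 and 75.7 on Day 4 in shSC. The shCTSL values were 43.0 and 39.9 on Day 0, 98.1 and 61.9 on Day 2, and 96.5 and 106 on Day 4. Again Day 0 overlapped and both later days did not, at a mean difference of 0.29 ± 0.11 (0.05 to 0.53). Lgmn (chr12:103632294-103678023, minus strand) read 37.7 and 41.6 on Day 0, 91.7 and 84.7 on Day 2, and 119 and 106 on Day 4 in shSC. In shCTSL its values were 36.6 and 35.0 on Day 0, 125 and 91.8 on Day 2, and 156 and 154 on Day 4. They were below shSC on Day 0, above it by a narrow margin on Day 2 and above it on Day 4, at a mean difference of 0.20 ± 0.08 (0.01 to 0.39) and of 0.46 ± 0.14 on Day 4 alone (adjusted p = 0.299).

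The 3 lowest were Npc1, Manba and Scarb2. Npc1 read 51.2 and 49.3 on Day 0, 111 and 104 on Day 2, and 158 and 136 on Day 4 in shSC. Its shCTSL libraries gave 40.4 and 45.2 on Day 0, 54.5 and 122 on Day 2, and 118 and 98.1 on Day 4. It was below shSC on Day 0 and Day 4, whereas the shCTSL Day 2 libraries differed from each other by more than any pair of shSC libraries. The mean difference was -0.32 ± 0.17 (-0.69 to 0.05). For Manba, the values given above put both shCTSL libraries below shSC on Day 0 and Day 2 and among them on Day 4. Its difference was -0.52 ± 0.12 on Day 0 (adjusted p = 0.257) and -0.27 ± 0.07 in the mean (-0.42 to -0.12). Scarb2 was at -0.18 ± 0.08 (-0.35 to -0.01). Tfeb, by the values given above, was lower in both shCTSL libraries on Day 0 (-0.51 ± 0.19, adjusted p = 0.598), higher in both on Day 2 (0.57 ± 0.22, adjusted p = 0.230) and overlapped on Day 4.

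Whether the change over the days differed between the lines was tested as an interaction, with 0 of the 37 called in any step by edgeR or DESeq2. The share of all genes called was 0% for Day 2 against Day 0, 0% for Day 4 against Day 2 and 0.00644% for Day 4 against Day 0. Before adjustment, p was under 0.05 for 5, 0 and 3 of the 37, or 13.5%, 0% and 8.11%, beside 11.0%, 4.85% and 6.71% of all genes. The largest of the 37 differences in the change from Day 0 to Day 2 was that of Tfeb, 1.07 ± 0.29 (95% interval 0.42 to 1.73, adjusted p = 0.390). The largest in the change from Day 0 to Day 4 was that of Cd63, 0.70 ± 0.32 (95% interval -0.01 to 1.42, adjusted p = 0.745), and the next that of Lgmn, 0.61 ± 0.21 (0.14 to 1.07, adjusted p = 0.668). Lgmn was called when both shCTSL Day 2 libraries were left out (log2 0.60, adjusted p = 0.0194, 1.67% of all genes called), when only the libraries compared were fitted (0.61, 0.0355) and with a quality weight per library in limma-voom (0.60, 0.0410). Without either shCTSL Day 2 library alone it was called too, at 0.60 and 0.61.

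The shCTSL Day 2 libraries differed from each other more than any other pair. The SD of the log2 ratio of the 2 replicates over the 37 genes was 0.453 in that group and 0.0960 to 0.189 in the other 5, and over all genes 0.604 against 0.178 to 0.269. In shCTSL on Day 2, 9 of the 37 genes differed between the replicates by more than 1.5-fold, and 0 in each other group. Over the 37 genes the ratio in that group fell with exonic length, with a slope of -1.06 per unit of log10 length (-0.77 without Npc1), beside -0.15 to 0.37 in the other groups. Npc1, with 10.7 kb of exon the longest of the 37, was lower in the first library by 1.16 on the log2 scale, and Cd63, with 1.03 kb the shortest, was higher by 0.70. The scatter about this trend was wide, as Lamp2 with 9.55 kb was at 0.05 and Scarb2 with 2.11 kb at -0.44. The slope of log2 level on log10 length over all genes was -0.79 in the first library and 0.25 in the second, beside -0.39 to 0.51 in the other 10.

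**Figure D5:**
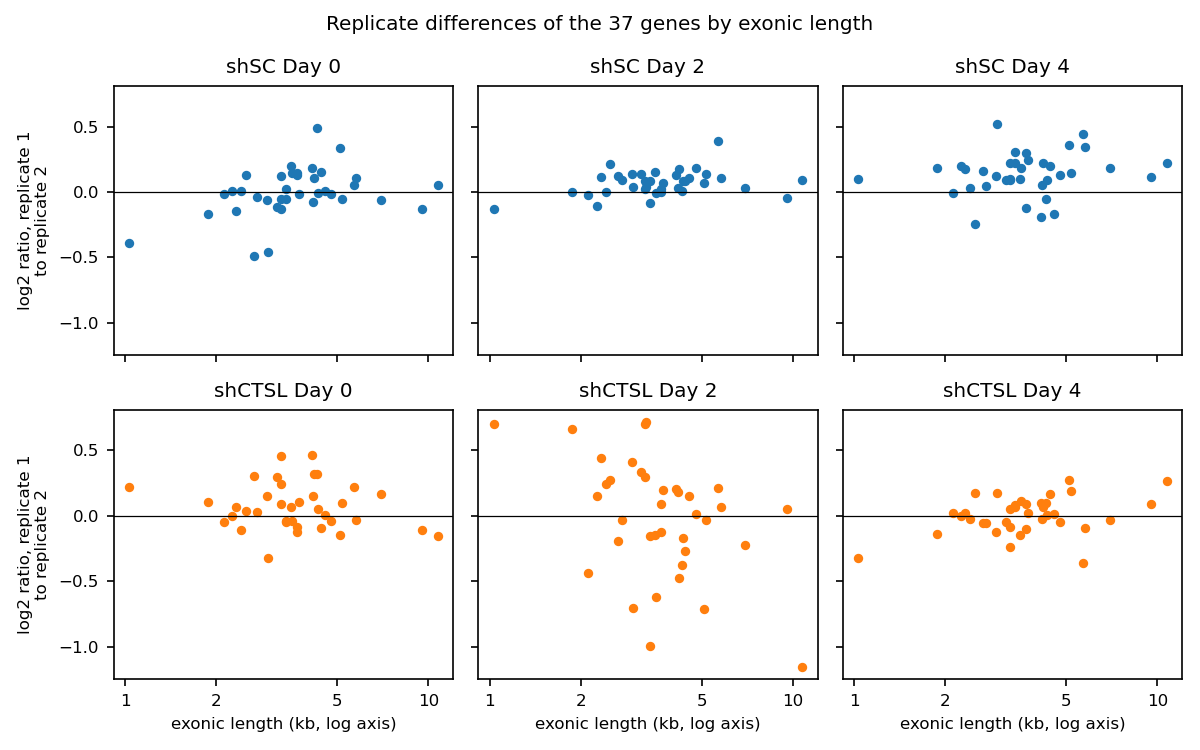
Log2 ratio of replicate 1 to replicate 2 for each of the 37 genes against exonic length in kb (log axis), with 1 panel for each of the 6 groups. The shCTSL Day 2 panel spans -1.16 to 0.72 and falls with length with wide scatter, whereas the other panels stay within -0.49 to 0.52.

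The comparison on Day 2 depended on which of these libraries was kept. Without the second, 9 of the 37 were called between the lines on Day 2, beside 31.6% of all genes: Cd63, Fuca1, Hexa, Npc2 and Tfeb higher in shCTSL and Ctns, Ids, Lipa and Npc1 lower. In the Day 2 against Day 0 interaction 12 were then called, beside 26.0% of all genes, and in Day 4 against Day 2, 2 (14.7% of all genes). Without the first, 0 were called on Day 2 and in the first interaction, and 1, Npc1 at -0.63, in the Day 4 against Day 2 interaction (3.57% of all genes). The changes within shCTSL from Day 0 to Day 2 were less affected, with 23 called higher and 3 lower without the first library and 22 and 4 without the second.

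Levels per kilobase of exon set the genes in order. On shSC Day 0 the highest means were those of Lamp1 (211 normalized CPM per kb), Psap (88.8), Scarb2 (64.6) and M6pr (50.1), and the lowest those of Naglu (1.21), Sgsh (0.569) and Arsb (0.196). On shSC Day 4 the order began with Psap (238), Lamp1 (225), Asah1 (101) and Npc2 (79.0) and ended with Arsb (2.25), Sgsh (2.18) and Tfeb (1.07). Lipa moved from place 31 to 8 and Tfeb from 18 to 37. On shCTSL Day 4 the first 4 were the same genes, led by Psap (264) and Lamp1 (226), and the last 3 were again Arsb (2.41), Sgsh (2.24) and Tfeb (1.06). The length joins all annotated exons of a gene, so a gene with several transcripts may stand too low in this order. No test was made between genes.

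Other lists of the pathway were counted between Day 0 and Day 4, over which 32.1% of all genes were called higher and 28.7% lower in shSC, and 32.3% and 27.6% in shCTSL. The difference between lists was not tested. Of 16 further lysosomal enzymes, 12 were called higher in shSC and 15 in shCTSL, with 0 lower in either and medians of 0.99 and 1.09 on the log2 scale. Of 14 further membrane proteins, shSC had 8 called higher and 1 lower and shCTSL 6 and 1, from Ostm1, a partner of the chloride exchanger CLC-7, at 2.07 and 1.97 to Cd68 at -1.28 and -1.11. Of the 16 tested subunits of the vacuolar proton pump that acidifies lysosomes, 3 were called higher and 2 lower in shSC, and 5 and 2 in shCTSL, with medians of 0.07 and 0.06. The lowest was Atp6v1c1, at -0.87 and -0.90, and the highest Atp6ap1 in shSC at 1.51 and Tcirg1 in shCTSL at 1.81. Of 12 genes of the mannose 6-phosphate tag and of sorting, 3 were called higher and 1 lower in shSC and 3 and 2 in shCTSL. Sort1, sortilin, was highest at 2.12 and 2.03, and Gnptab, the phosphotransferase that starts the tag, lowest at -0.61 and -0.69. Of 16 autophagy genes, 8 were called higher and 2 lower in each line, with Wipi1 highest at 2.03 and 2.10. The lowest was Ulk1 in shSC at -0.93 and Gabarapl2 in shCTSL at -0.77.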

How the data were processed

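RNA-seq libraries (poly(A) selected, directional kit) of 12 samples in 6 groups were used. The authors checked reads with FastQC 0.11.2, used STAR 2.3.0e to align them to mm9 and SAMtools 0.1.19 to drop poorly mapped, mitochondrial and unplaced reads, and deposited raw counts per RefSeq gene from featureCounts 1.6.2. They tested with DESeq2 1.16.1. The sources used here do not state whether counting took strand into account.

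From the deposited counts, genes were filtered with filterByExpr (minimum count 10), scaled with TMM factors and fitted over all 12 libraries with edgeR 4.0.16 (quasi-likelihood test, two-sided, 6 residual degrees of freedom). P-values were adjusted by Benjamini-Hochberg over all 15532 genes tested. A call needed an adjusted p under 0.05 and 1.5-fold (0.585 on the log2 scale). Plots used log2(CPM + 0.5). DESeq2 1.42.0, limma 3.58.1 (voom with quality weights) and other settings named in the closing section were alternatives. The scripts were tested on simulated data. Totals were 11171111 to 27155553 counts per library, and the precision also rests on the spread between replicates.

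Exonic lengths (all annotated exons of a gene joined) and mm9 positions came from GENCODE M1, whereas reads had been counted per RefSeq gene. Genes were matched by symbol or another name (Tfeb is listed in GENCODE M1 as Tcfeb). Promoter sequences came from RefSeq (GRCm38.p6). The genes and lists were chosen with earlier results of these data known. Values in all libraries are given for Ctsl, Lamp1, Lamp2, Tfeb, M6pr, the 4 highest and 4 lowest changes from Day 0 to Day 4 in shSC, the 2 highest and 2 lowest from Day 2 to Day 4, and the 3 highest and 3 lowest mean differences between the lines. R 4.3.3 and Python 3.11.15 were used.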

Additional observations from a re-analysis of the deposited data

How the results depend on the processing

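From Day 0 to Day 4 the counts of lysosomal genes called, 27 in shSC and 28 in shCTSL, moved by more than 1.5 times only with a required log2 fold change of at least 1.5, when they were 13 and 15. With that requirement the other counts within a line were 8 and 12 from Day 0 to Day 2 and 1 and 1 from Day 2 to Day 4, in shSC and shCTSL. From Day 2 to Day 4, shSC gave 5 calls with RLE normalization, 5 with at least 1 CPM in 2 libraries and 3 to 10 with 1 library left out. In shCTSL there were 3 calls with no low count filter, 2 with only the libraries compared, 2 with limma-voom quality weights, 9 with no fold cutoff and 3 to 9 with 1 library left out. Between the lines, leaving out 1 library gave 0 to 9 calls on Day 2, and 0 to 12, 0 to 2 and 0 to 1 in the interactions of Day 2 against Day 0, Day 4 against Day 2 and Day 4 against Day 0. The last was 1 with only the libraries compared, with the shCTSL Day 2 libraries left out and with limma-voom quality weights. The cause of these moves was not tested, apart from the fold required.

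The log2 difference of Ctsl on Day 0 was -1.95 to -1.83 with 1 library left out. On Day 2 it was not called with only the libraries compared (-1.05), with limma-voom quality weights (-1.07) or with a log2 fold change of at least 1.5 required (-1.06), and was -1.28 to -0.86 with 1 library left out. On Day 4 it was called with DESeq2 (-0.83), no low count filter (-0.86), only the libraries compared (-0.81), the shCTSL Day 2 libraries left out (-0.82), limma-voom quality weights (-0.83) and exonic length offsets (-0.95), and was -0.93 to -0.73 with 1 library left out. Signs turned with 1 library left out for uncalled changes from Day 0 to Day 4: Lamp1 (-0.010 to 0.19), Gla (-0.024 to 0.20) and Gm2a (-0.17 to 0.029) in shSC, and Gla (-0.077 to 0.39) and Ids (-0.20 to 0.087) in shCTSL. Among promoters of tested genes only, 6.61% held TCACGTG and 1.94% TCACGTGA.

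Whether the replicate numbers pair the libraries could not be settled with 2 libraries per group. Deviations of same-numbered libraries correlated over genes at -0.465 to 0.257 between groups, with shCTSL Day 2 in both extremes. Such correlations cannot show whether same-numbered libraries were handled together. With the replicate block, the 6 counts within a line were 24, 6 and 27 in shSC and 27, 4 and 28 in shCTSL, 0 were called between the lines, and Ctsl on Day 2 was -1.06 with an adjusted p of 0.0631.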
